A study of Homo sapiens with 6 samples.

Results

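The genes of the proteasome were examined in Huh7SR cells, a sorafenib-resistant derivative of the human hepatocellular carcinoma line Huh7, after treatment with fostamatinib or with DMSO. Members were all genes whose symbol is PSMA, PSMB, PSMC, PSMD, PSME, PSMF or PSMG followed by digits alone. This gave 46 of the 16305 genes listed, while PSMA8 and PSMB11 had no row and 9 further rows with such a beginning (pseudogenes, antisense genes and PSMC3IP) were left out. RNA from 3 samples treated with fostamatinib, an inhibitor of spleen tyrosine kinase, was compared with RNA from 3 samples that received the vehicle DMSO. The labels give 2 µM, also for DMSO, and 24 h. Both groups carried the acquired resistance, and per the methods sorafenib had been taken out of the medium some days before any experiment. The labels name the line alone, and the methods call the sequenced cells Huh7-R, their name for a resistant pool as opposed to single clones. The samples were treated in triplicate, and the sources do not say whether they were separate cultures, so the p-values may measure only technical spread.

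The proteasome is the protease that degrades most ubiquitin-tagged proteins. Its barrel-shaped core particle, the 20S proteasome, is built of alpha rings that gate the entrance and beta rings that hold the proteolytic sites. The regulatory particle, 19S, binds ubiquitin chains, removes them and unfolds the substrate with a ring of ATPases. After interferon exposure, cells replace the constitutive catalytic subunits PSMB5, PSMB6 and PSMB7 with PSMB8, PSMB9 and PSMB10, which forms the immunoproteasome, and make more of the PA28 activator (PSME1 and PSME2). These changes alter the peptides cut for display on class I molecules. Constitutive subunit genes are driven together by the transcription factor NFE2L1 when proteasome activity falls short, through antioxidant response elements in their promoters.

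The promoters of the 5 immunoproteasome genes are printed here beside those of PSMB5, the constitutive counterpart of PSMB8, and of PSMD12 and PSMG1, the lid gene and the assembly factor that fell most, so that their motifs can be compared. Each window holds 120 bases of the RefSeq table for GRCh38.p14, from 100 bases before the gene start to 20 after it, read 5′ to 3′ on the strand of the gene. The PSMG1 window was set farther upstream, from 250 to 131 bases before the start, to show its matches, which lie there. Capitals mark matches, on either strand, to the antioxidant response element core TGACNNNGC, the core of the interferon-stimulated response element (a pair of GAAA runs with any 2 bases between them), the NF-Y box CCAAT or the ETS core CCGGAA. The end of an ETS core can be the beginning of an interferon core, so these letters can overlap. PSMB8 and PSMB5 each have 2 starts in the table. For PSMB8 the printed window is that of the start that holds the interferon core, and for PSMB5 that of the start with the ETS core, while its other start has an NF-Y box upstream.

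PSMB8 (chr6:32844028-32844147, minus strand): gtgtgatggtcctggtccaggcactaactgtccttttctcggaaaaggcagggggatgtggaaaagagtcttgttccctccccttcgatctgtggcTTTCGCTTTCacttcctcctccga
PSMB9 (chr6:32854092-32854211, plus strand): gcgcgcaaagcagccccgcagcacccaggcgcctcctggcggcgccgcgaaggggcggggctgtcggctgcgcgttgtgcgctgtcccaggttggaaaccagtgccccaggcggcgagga
PSMB10 (chr16:67936831-67936950, minus strand): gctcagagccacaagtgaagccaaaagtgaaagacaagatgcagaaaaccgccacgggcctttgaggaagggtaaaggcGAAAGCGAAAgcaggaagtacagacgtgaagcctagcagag
PSME1 (chr14:24136094-24136213, plus strand): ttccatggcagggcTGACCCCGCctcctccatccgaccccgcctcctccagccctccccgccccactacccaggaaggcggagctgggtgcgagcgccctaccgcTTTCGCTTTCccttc
PSME2 (chr14:24146591-24146710, minus strand): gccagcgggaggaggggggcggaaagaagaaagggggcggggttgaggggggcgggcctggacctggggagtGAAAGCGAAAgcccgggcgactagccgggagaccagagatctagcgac
PSMB5 (chr14:23034881-23035000, minus strand): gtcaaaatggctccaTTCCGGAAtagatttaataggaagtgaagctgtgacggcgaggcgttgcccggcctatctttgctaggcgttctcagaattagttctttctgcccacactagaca
PSMD12 (chr17:67366558-67366677, minus strand): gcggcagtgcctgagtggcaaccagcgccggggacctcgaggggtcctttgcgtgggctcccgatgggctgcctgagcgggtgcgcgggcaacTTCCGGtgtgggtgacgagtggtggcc
PSMG1 (chr21:39183582-39183701, minus strand): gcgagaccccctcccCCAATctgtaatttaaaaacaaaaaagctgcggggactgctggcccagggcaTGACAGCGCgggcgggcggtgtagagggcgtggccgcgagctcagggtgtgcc

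The windows of PSMB8, PSMB10, PSME1 and PSME2 hold the interferon core. The printed bases of PSMB9 hold none of these motifs, but farther upstream, where the PSMG1 window was taken, PSMB9 has an NF-Y box and an antioxidant core too. PSME2 and PSMD12 also have an antioxidant core upstream of their printed bases. PSME1 also holds the antioxidant core, as does PSMG1, whose window has an NF-Y box too. PSMB5 and PSMD12 hold the ETS core, which in PSMB5 matches on both strands over the same letters.

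Over the full windows of the table, 250 bases before to 50 after each start, 40 of the 46 members had an entry, 8 of them with more than 1 start. PSMA7, PSMB1, PSMB6, PSMB7, PSMD4 and PSMG3 had none. The interferon core was found in 7 members (17.5% of the 40 and 4.38% of all 27305 genes in the table), namely the 4 immunoproteasome genes above and PSMA4, PSMB4 and PSMG4. The antioxidant core was found in 15 members, 37.5% against 16.1% of all genes. The ETS core was found in 21 members, 52.5% against 20.1%, and the NF-Y box in 19, 47.5% against 39.7%. The shares of all genes include genes without a row in these samples, and shares among the listed genes alone were not computed. A match describes the letters of a window and is not evidence of binding.

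The files hold log2 CPM, the logarithm of read counts brought to the same library size (CPM) by the TMM method, with 0.5 added to each count. Read counts recovered from these values summed to between 13303451 and 15272737 per sample over the listed genes. For 2 samples of a group, a chi-square over genes, divided by its degrees of freedom (1 for pure counting noise), was 1.645 to 3.742, and across groups it was 39.755 to 44.488, so no library was counted as a repeat of another. Fold changes are differences of mean log2 CPM, fostamatinib minus DMSO, from a limma model fitted to all 16305 genes, and a gene was called when its Benjamini-Hochberg adjusted p-value was under 0.05. By this rule 47.8% of all genes were called, 23.3% higher and 24.5% lower after fostamatinib, so that a call alone does not set a gene apart. All 8 hepatocyte and Huh7 markers had rows, ALB with a mean of 9338.0 reads and AFP with 28003.7 in the DMSO samples, and their level summed over the list was 3590.0 to 3840.0 CPM with DMSO and 4990.0 to 5190.0 with fostamatinib. All 8 rose, with the largest rise in APOA1 (3.19 on the log2 scale, adjusted p = 1.79e-18), which had a mean of 21.7 reads with DMSO. Of the markers of other cells, PTPRC, CD3E and CD68 had no row. COL1A1 had a mean of 85.3 reads with DMSO and was not called. PECAM1 had a mean of 94.7 reads with DMSO and rose by 0.51. VIM, a marker of the mesenchymal state, had 29582.3 and fell by 0.54. The summed level was 1990.0 to 2070.0 CPM with DMSO and 1380.0 to 1440.0 with fostamatinib, nearly all of it VIM. The part of these shifts in the values of the proteasome genes was not tested. In bulk RNA, fewer cells of a kind and less RNA per cell cannot be told apart.

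After fostamatinib most proteasome genes were slightly lower. Of the 46 members 24 fell, 4 rose and 18 did not pass the test. A negative fold change was found in 38, against 49.8% of all genes and 52.8% of those that averaged 500 reads or more. The 28 calls are 60.9% of the members, against the 47.8% of all genes, while 24.5% of all genes fell and 23.3% rose. Among the 5836 genes that averaged 500 reads or more, a limit chosen after the data were seen, 66.8% were called and 36% fell. Of the 37 members above that limit 23 were called, 62.2%, with 20 lower and 3 higher. The median log2 fold change of the 46 members was -0.14, against 0.002 for all genes and -0.02 for the well-covered genes.

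The changes were small. PSMG1 alone passed the test with a change of at least 1.5-fold, as did 15.7% of all genes and 9.87% of the well-covered ones, and for 27 of the 28 called members the absolute log2 fold change was under 0.5. The fostamatinib samples did not overlap the DMSO samples for 31 members, against 54.1% of all genes and 70.7% of the well-covered ones. Reads on the 46 genes made up 0.696%, 0.694% and 0.688% of all reads on listed genes with DMSO and 0.643%, 0.633% and 0.619% with fostamatinib. All 46 members had at least 10 reads in every sample, and 6 had a mean under 150.

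**Figure D1:**
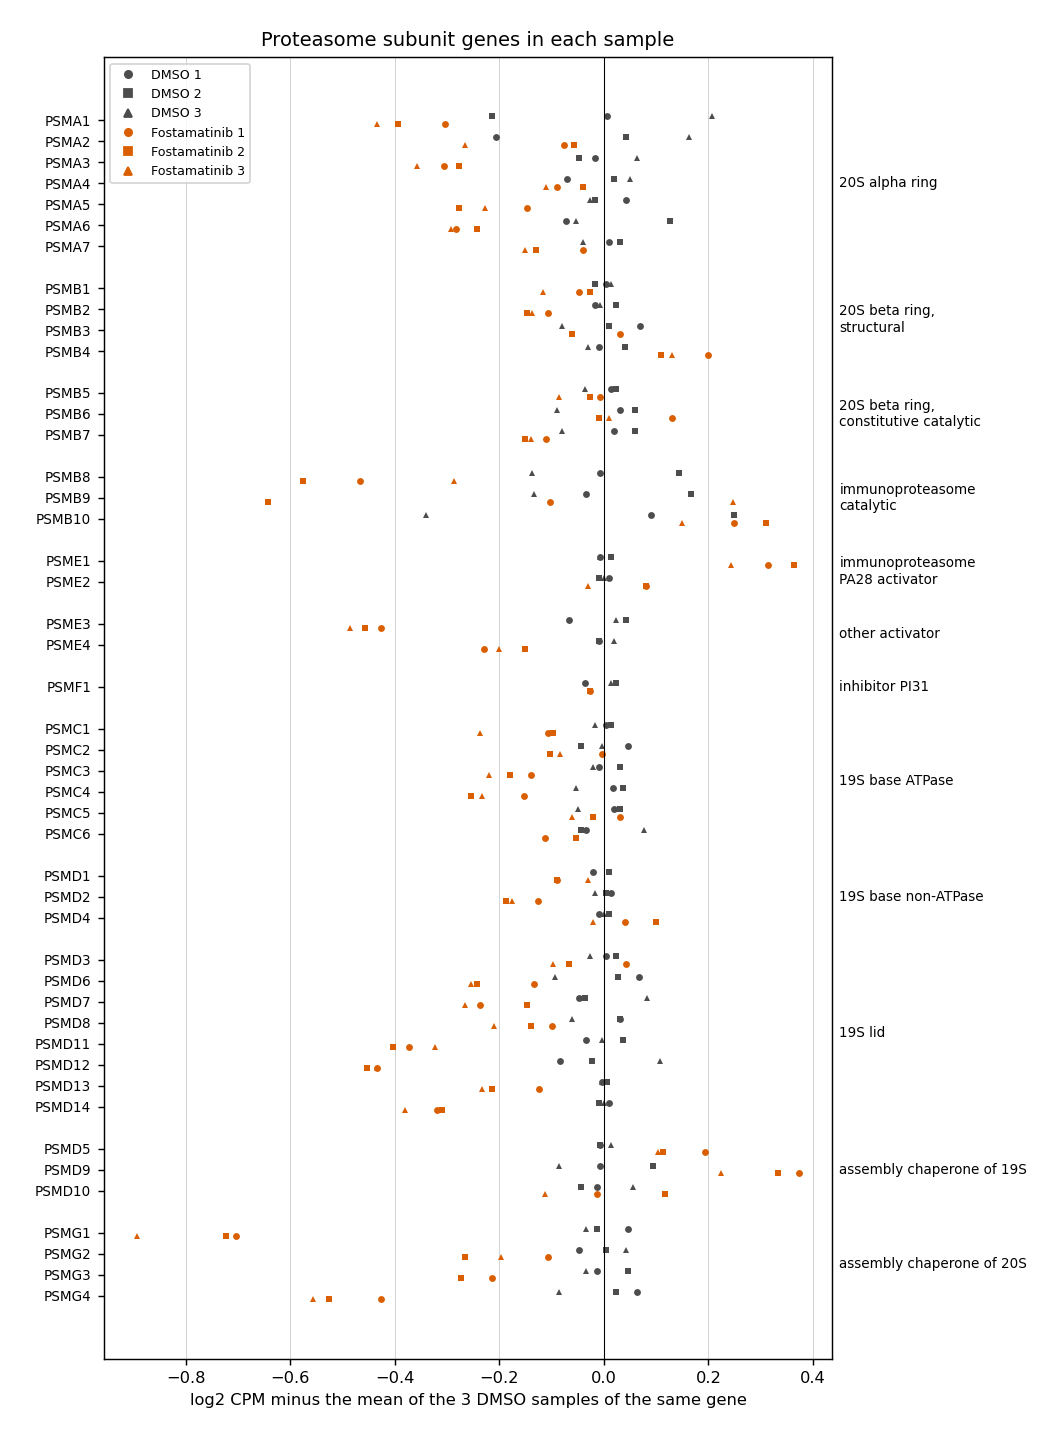
Level of each proteasome gene in each of the 6 samples, as log2 CPM minus the mean of the 3 DMSO samples of that gene, grouped by role (grey, DMSO; orange, fostamatinib; the marker shape gives the replicate). Orange points lie left of the grey ones for most genes, farthest for PSMG1, and right of them for PSME1, PSMB4, PSMD5 and PSMD9.

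Falls outnumbered rises in each class but the immunoproteasome. Of the 17 regulatory particle genes 11 fell and none rose, with a median log2 fold change of -0.17. Of the 14 core genes 6 fell and 1 rose, with a median of -0.12. Of the 10 assembly factors and other regulators 6 fell and 2 rose, with a median of -0.19. Of the 5 immunoproteasome genes 1 fell and 1 rose, with a median of 0.05. Among all genes 24.5% fell and 23.3% rose. Among those that averaged 500 reads or more, 36% fell and 30.8% rose. These counts describe the classes, and the differences between classes were not tested.

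**Figure D2:**
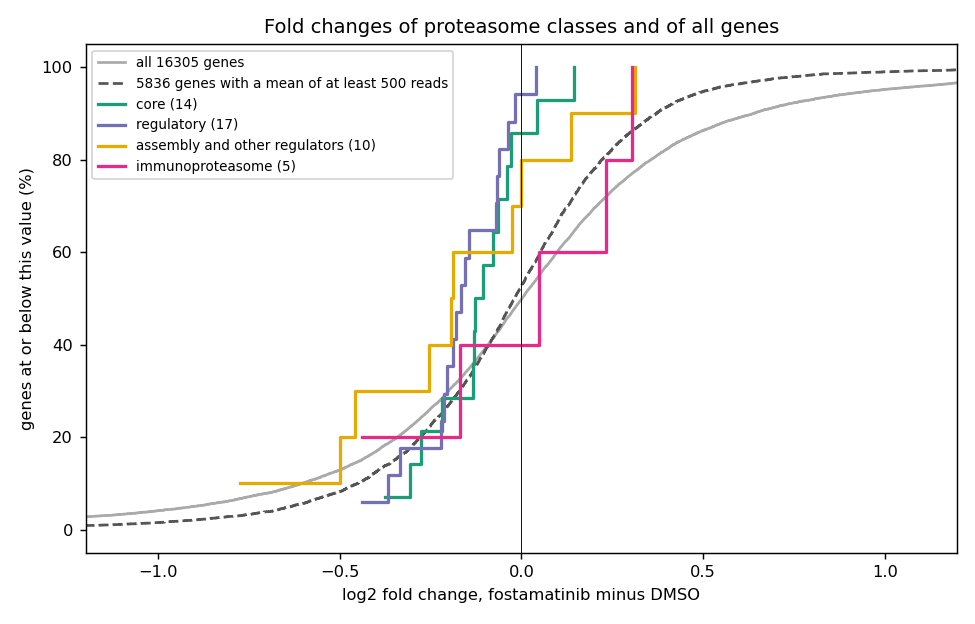
Cumulative share of genes (percent) at or below each log2 fold change, for the 4 proteasome classes, all 16305 genes (solid grey) and the 5836 genes that averaged 500 reads or more (dashed). The medians of the regulatory (-0.17), core (-0.12) and assembly (-0.19) classes lie left of 0, and that of the 5 immunoproteasome genes (0.05) lies right of it; the horizontal axis ends at 1.2 on either side.

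All 7 alpha ring genes had negative fold changes, and 4 fell. Over all genes 49.8% had a negative fold change and 24.5% fell. Of the genes that averaged 500 reads or more, 52.8% had a negative fold change and 36% fell. The alpha subunits form the outer rings through which substrates enter. PSMA1, on chromosome 11 of GRCh37 from 14526420 to 14665181, fell most, from log2 CPM of 5.23, 5.01 and 5.43 with DMSO to 4.92, 4.83 and 4.79 with fostamatinib. No fostamatinib sample reached the lowest DMSO sample, although the DMSO samples were spread (SD 0.214, n = 3). The difference was -0.38 (SE 0.079, limma adjusted p = 1.4e-04). PSMA3 fell by 0.31 (adjusted p = 6.17e-07), PSMA5 by 0.22 (1.34e-04) and PSMA7 by 0.11 (0.0227).

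PSMA7 was the one called member whose groups overlapped, and its call was lost without DMSO replicate 1 or 2 or without fostamatinib replicate 2 or 3 (adjusted p = 0.0744, 0.0824, 0.103 and 0.125). With a variance prior that ignores the trend with expression, neither PSMA1 (adjusted p = 0.0555) nor PSMA7 (0.159) passed, while PSMA6 did (0.027). PSMA2 (-0.13), PSMA4 (-0.08) and PSMA6 (-0.28, adjusted p = 0.0861) did not pass, although the groups of PSMA6 did not overlap. PSMA2 had only 49 to 74 reads per sample and PSMA6 78 to 121, with SE of 0.168 and 0.133 against 0.041 for PSMA4. PSMA4 passed without DMSO replicate 1 (adjusted p = 0.0488).

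Of the 4 beta subunits without a proteolytic site, 1 rose and 1 fell. PSMB4, on chromosome 1 from 151372036 to 151374413, rose from 7.71, 7.76 and 7.69 to 7.92, 7.83 and 7.85, with every fostamatinib sample above every DMSO sample. The rise was 0.15 (SE 0.040, adjusted p = 0.00294) and was the only one among the 14 core genes. PSMB2 fell from 8.19, 8.23 and 8.20 to 8.10, 8.06 and 8.07, by 0.13 (SE 0.037, adjusted p = 0.00444). Neither passed without the trend (adjusted p = 0.0659 for PSMB4 and 0.0567 for PSMB2). PSMB1 (-0.06) and PSMB3 (-0.03) did not pass, and the groups of PSMB1 did not overlap.

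The constitutive catalytic genes moved little. PSMB5, which supplies the chymotrypsin-like site, had log2 CPM of 7.96, 7.97 and 7.91 with DMSO and 7.94, 7.92 and 7.86 with fostamatinib. The groups overlapped, and the difference of -0.04 did not pass (SE 0.039, 95% interval -0.12 to 0.04, adjusted p = 0.427). PSMB6, with the caspase-like site, had 6.99, 7.02 and 6.87 against 7.09, 6.95 and 6.97, an overlapping pair of groups with a difference of 0.04 (95% interval -0.06 to 0.14, adjusted p = 0.505). PSMB7, with the trypsin-like site, had 6.94, 6.98 and 6.84 with DMSO and 6.81, 6.77 and 6.78 with fostamatinib. It fell by 0.13 (SE 0.047, adjusted p = 0.0173) without overlap. This call was lost without the trend (adjusted p = 0.106) and without DMSO replicate 1 or 2 or fostamatinib replicate 2 or 3 (0.0649, 0.1, 0.0653 and 0.0532).

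Of the 3 immunoproteasome catalytic genes, PSMB8 fell, and the other two had few reads. PSMB8 replaces PSMB5 and lies on chromosome 6 from 32808494 to 32812456, where the gene bounds of PSMB9 (32811913 to 32827628, on the other strand) begin before its own end. Other gene models cover 0.0% of the canonical exon bases of PSMB8 and of PSMB9 on either strand. PSMB8 had 234, 287 and 230 reads with DMSO and 170, 163 and 186 with fostamatinib, or log2 CPM of 4.09, 4.24 and 3.96 against 3.63, 3.52 and 3.81. Every fostamatinib sample lay below every DMSO sample. The fall was 0.44 on the log2 scale (SE 0.099, 95% interval -0.64 to -0.24, adjusted p = 3.82e-04), so that the level fell by 26.2%, and its call held in every refit tried.

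PSMB9, which replaces PSMB6, had 18, 23 and 18 reads with DMSO and 17, 12 and 21 with fostamatinib. On the log2 CPM scale these were 0.42, 0.62 and 0.32 against 0.35, -0.19 and 0.70, with the fostamatinib samples both below and above the others. A change was not detectable at this depth (-0.17, SE 0.304, 95% interval -0.79 to 0.45, adjusted p = 0.676). PSMB10, which replaces PSMB7, had 54, 67 and 43 reads with DMSO and 60, 65 and 54 with fostamatinib. Its log2 CPM was 1.98, 2.14 and 1.55 against 2.14, 2.20 and 2.04, with DMSO replicate 3 lowest and the groups overlapping. The difference was 0.23 (SE 0.178, 95% interval -0.13 to 0.60, adjusted p = 0.297), and it was 0.061 without DMSO replicate 3.

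Of the PA28 activator pair, PSME1 rose and PSME2 did not pass the test. PSME1 and PSME2 form a mixed ring that caps the core and opens its gate, and both genes lie on chromosome 14 (24605372 to 24608176 and 24612571 to 24616779). PSME1 had 2224, 2492 and 2394 reads with DMSO and 2768, 2970 and 2527 with fostamatinib. Its log2 CPM was 7.33, 7.35 and 7.33 against 7.65, 7.70 and 7.58, with all fostamatinib samples above all DMSO samples. The rise was 0.30 (SE 0.042, 95% interval 0.22 to 0.39, adjusted p = 1.79e-07), or 23.5%, and its call held in every refit tried. PSME2 had 7.32, 7.30 and 7.31 against 7.39, 7.39 and 7.28, so fostamatinib replicate 3 lay below the DMSO samples and the others above. The difference of 0.05 did not pass (SE 0.043, 95% interval -0.04 to 0.13, adjusted p = 0.39). The difference between the changes of PSME1 and PSME2 was not tested.

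**Figure D3:**
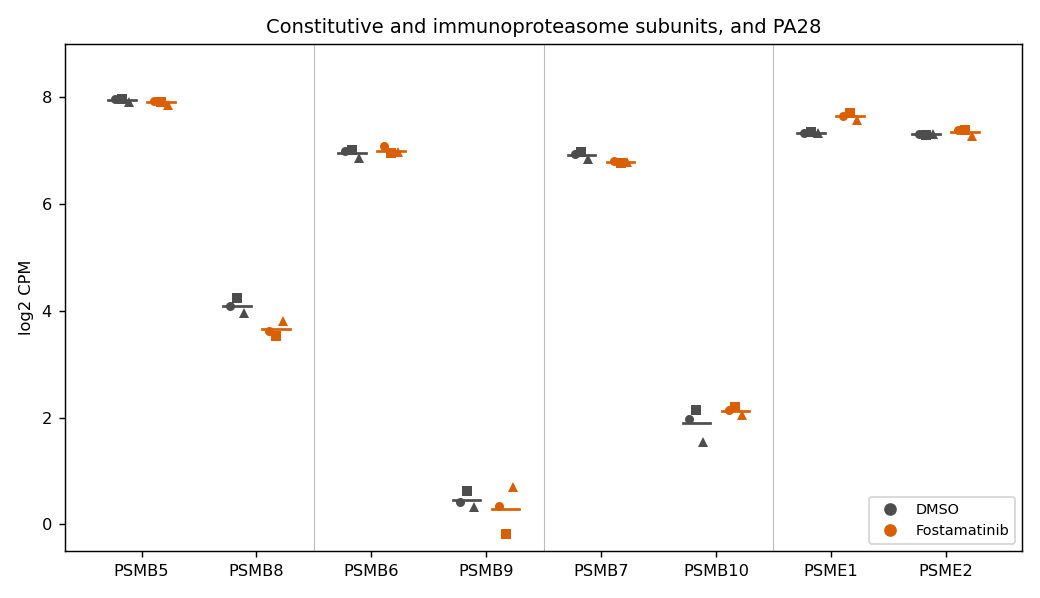
log2 CPM of the 3 constitutive catalytic genes beside the immunoproteasome genes that replace them, and of PSME1 and PSME2, in the 3 DMSO (grey) and 3 fostamatinib (orange) samples, with the mean of each group as a line. PSMB8, PSMB9 and PSMB10 lie far below PSMB5, PSMB6 and PSMB7 in both groups, and the groups are apart for PSMB8, PSMB7 and PSME1.

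Each immunoproteasome gene was also set against the gene it replaces within the same sample. The log2 ratio of PSMB8 to PSMB5 was -3.87, -3.74 and -3.96 with DMSO and -4.30, -4.40 and -4.05 with fostamatinib. It was lower in every fostamatinib sample, a difference of -0.40 (exact permutation p = 0.1, two-sided; 0.15 adjusted over 3 pairs). The ratio of PSMB10 to PSMB7 was -4.95, -4.84 and -5.29 with DMSO and -4.67, -4.57 and -4.74 with fostamatinib, higher in every fostamatinib sample, by 0.37 (exact permutation p = 0.1, adjusted 0.15). The ratio of PSMB9 to PSMB6 was -6.56, -6.39 and -6.56 with DMSO and -6.74, -7.14 and -6.27 with fostamatinib, with overlap (difference -0.21, exact permutation p = 0.5). With 3 samples a group this test cannot give less than 0.1. Without fostamatinib replicate 2 the difference for PSMB9 was 0.001, and without DMSO replicate 3 that for PSMB10 was 0.236.

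Per kilobase of canonical transcript, PSMB8 stood at 6.43% of PSMB5 with DMSO and at 4.88% with fostamatinib. PSMB9 stood at 0.892% and 0.771% of PSMB6, and PSMB10 at 3.09% and 3.98% of PSMB7. PSME1 and PSME2 were as abundant as core genes, at 168 and 200 CPM per kilobase in the DMSO mean. Across the members this level ran from 1.35 CPM per kilobase for PSMB9 to 326 for PSMA7, followed from the top by PSMB1 (267), PSMD2 (257) and PSMB5 (236).

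The genes next to PSMB9 at the lower end were PSMD9 (2.50), PSMA2 (3.14), PSMB10 (3.86) and PSMA6 (7.14). In GENCODE version 44 another gene model on the same strand covers every exon base of PSMA2, and 81.4% of those of PSMA6, 67.0% of PSMA1, 56.1% of PSMB10 and 28.8% of PSMD9. PSMB10's partner had a mean of 6.5 reads in the files, and those of the other four had no row. How reads in shared exons, or reads that also match processed pseudogenes, were assigned is not stated in the sources used here, and the part of this overlap in the low levels was not tested. On the other strand, gene models cover 83.2% of the exon bases of PSMC1, 51.6% of PSMD7 and 13.7% of PSMC5. They also cover 2.7% of PSMD11, 2.2% of PSME4 and 0.4% of PSME1. Whether the counting used strand is not stated, and the part of this cover in the values was not tested.

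**Figure D4:**
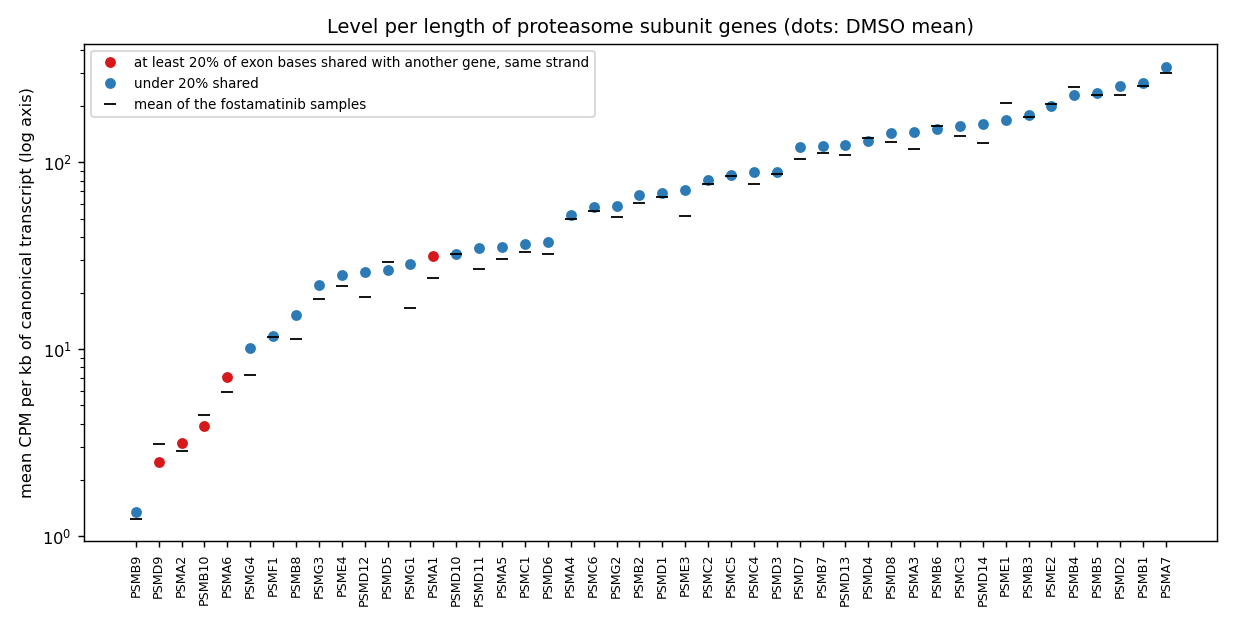
Mean CPM per kilobase of canonical transcript (log axis) of the 46 proteasome genes, in order of the DMSO mean (dots) with the fostamatinib mean as a dash. Red dots mark the 5 genes with at least 20% of exon bases shared with another gene model on the same strand, 4 of which are among the 5 lowest.

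In the 19S base, the 6 ATPases that unfold substrates all had negative fold changes, and 3 fell. Among all genes that averaged 500 reads or more, 52.8% had a negative fold change and 36% fell. PSMC4 fell most, from 7.30, 7.32 and 7.23 to 7.13, 7.03 and 7.05, without overlap. Its difference was -0.21 (SE 0.044, adjusted p = 1.13e-04). PSMC3 fell by 0.18 (adjusted p = 2.53e-04) and PSMC1 by 0.14 (0.00655). The call of PSMC1 was lost without fostamatinib replicate 3 (adjusted p = 0.0874) and without the trend (0.086). PSMC2 (-0.06), PSMC5 (-0.02) and PSMC6 (-0.07) did not pass, although the groups of PSMC6 did not overlap.

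The base also holds 3 scaffold and receptor subunits. PSMD2, the most read member, fell from 9.56, 9.55 and 9.53 to 9.42, 9.36 and 9.37, by 0.17 (SE 0.033, adjusted p = 8.11e-05), with no overlap. PSMD1, a scaffold like PSMD2, had a fold change of -0.07 that did not pass although its groups did not overlap. PSMD4, a ubiquitin receptor, had 0.04 and did not pass.

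In the lid, which removes ubiquitin chains, 7 of the 8 genes fell, each without overlap between the groups. Among all genes that averaged 500 reads or more, 36% fell and 70.7% had groups that did not overlap. PSMD12, on chromosome 17 from 65334032 to 65362721, fell most, from 6.73, 6.79 and 6.92 to 6.38, 6.36 and 6.38. The fostamatinib samples lay close together (SD 0.010) and below every DMSO sample. The fall was 0.44 (SE 0.050, adjusted p = 3.4e-09), and the level fell by 26.2%.

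PSMD11 fell by 0.37 (adjusted p = 2.1e-08), and PSMD14, the deubiquitinase of the lid, by 0.33 (6.07e-09). Falls of PSMD7 (0.22), PSMD6 (0.21), PSMD13 (0.19) and PSMD8 (0.15) passed as well. PSMD6 (adjusted p = 0.0579) and PSMD8 (0.0749) did not pass without the trend. PSMD3 had -0.04 and did not pass.

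**Figure D5:**
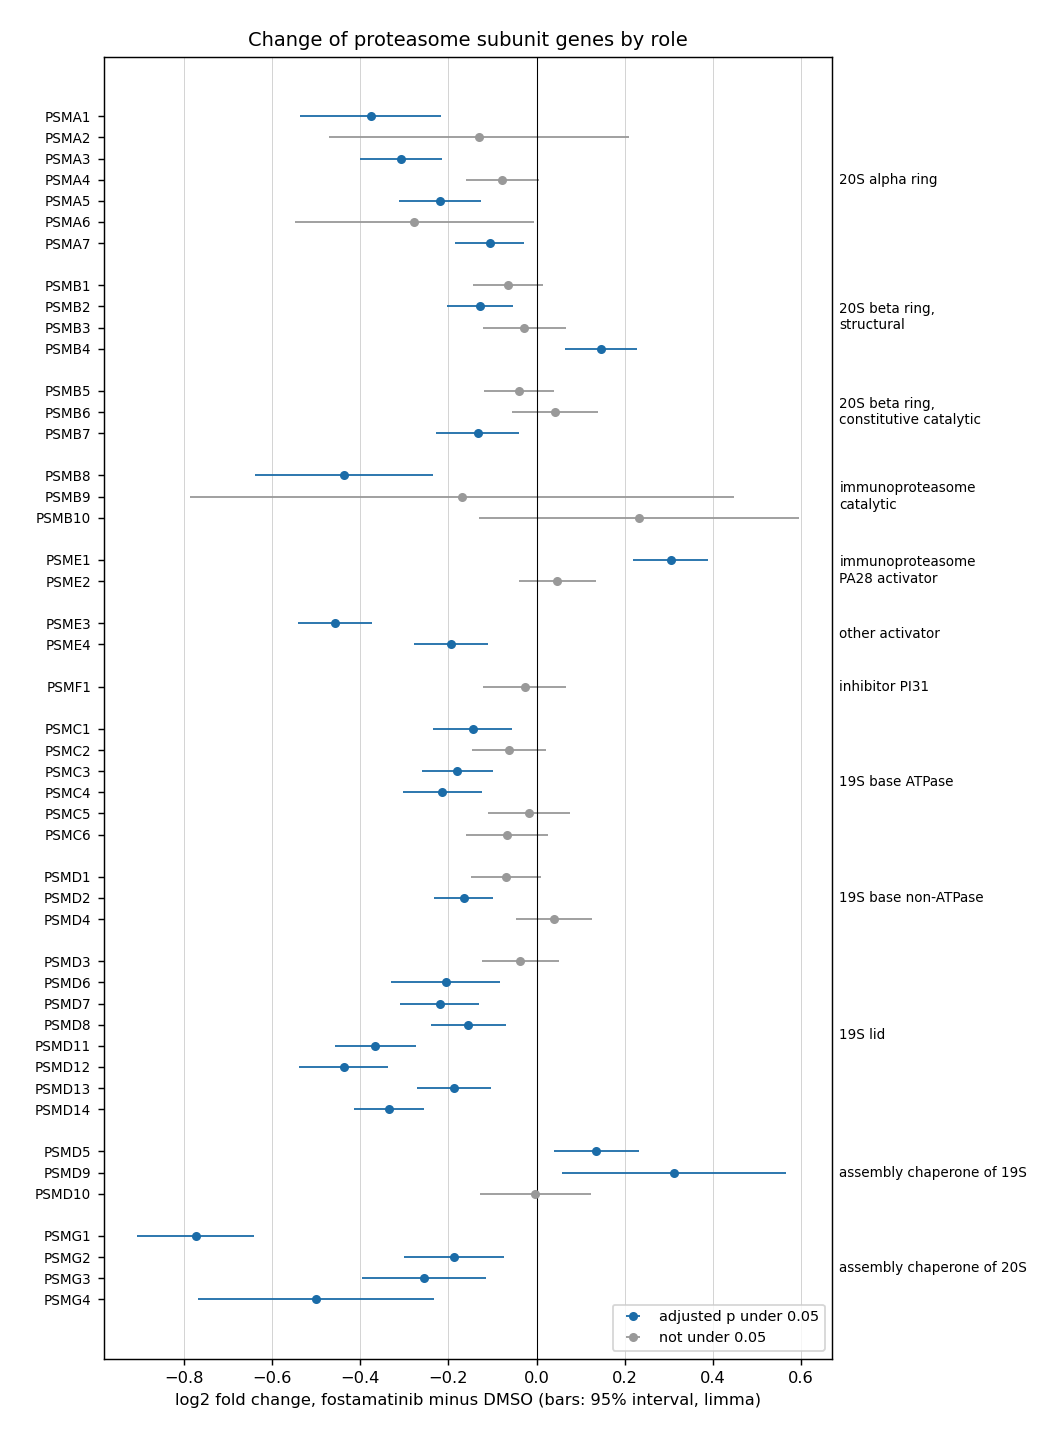
log2 fold change (fostamatinib minus DMSO) of each proteasome gene with its 95% interval from limma, grouped by role; blue points had an adjusted p-value under 0.05. The 7 called lid genes and the 4 chaperones of the 20S core lie left of 0, and PSME1, PSMB4, PSMD5 and PSMD9 are the called genes right of it.

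The 4 chaperones of the 20S core, which help to join alpha subunits into a ring, all fell, against 24.5% of all genes. PSMG1, on chromosome 21 from 40546695 to 40555414, had the largest change of any member, from 710, 753 and 726 reads to 421, 430 and 356. Its log2 CPM went from 5.69, 5.63 and 5.61 to 4.94, 4.92 and 4.75, with all fostamatinib samples far below the lowest DMSO sample. The difference was -0.77 (SE 0.065, 95% interval -0.91 to -0.64, adjusted p = 3e-12), so that the level fell by 41.5%. PSMG2, with which PSMG1 forms a dimer, fell by 0.19 (adjusted p = 0.00582), and without fostamatinib replicate 2 or without the trend it did not pass (0.0596 and 0.0543). PSMG4 fell by 0.50 (SE 0.132, adjusted p = 0.00185) on 72 to 124 reads per sample, and its partner PSMG3 by 0.25 (0.00253).

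Of the chaperones of the 19S base, PSMD9 and PSMD5 rose. PSMD9 had log2 CPM of 2.76, 2.86 and 2.68 with DMSO and 3.14, 3.10 and 2.99 with fostamatinib, on 93 to 122 reads. The groups did not overlap, and the rise was 0.31 (SE 0.125, adjusted p = 0.0384). The call was lost without DMSO replicate 1 or 3 or fostamatinib replicate 1 or 2 (adjusted p = 0.0754, 0.103, 0.111 and 0.0924). PSMD5 rose by 0.14 (SE 0.047, adjusted p = 0.0173), and its call was lost without DMSO replicate 1 (0.0501), without fostamatinib replicate 1 (0.103) and without the trend (0.0638). PSMD10, also called gankyrin, had a fold change that rounded to 0.00 (95% interval -0.13 to 0.12).

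Both activators outside the immunoproteasome fell, against 24.5% of all genes and 36% of those that averaged 500 reads or more. PSME3 codes for PA28 gamma, a nuclear relative of PSME1 and PSME2, and lies on chromosome 17 from 40976402 to 40995777. It fell from 7.75, 7.86 and 7.84 to 7.39, 7.36 and 7.33, well clear of the DMSO samples. The difference was -0.46 (SE 0.042, 95% interval -0.54 to -0.37, adjusted p = 1.87e-11), opposite in sign to that of PSME1. PSME4, the activator PA200, fell by 0.19 (adjusted p = 1.8e-04). PSMF1, the inhibitor PI31, had -0.03 and did not pass.

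Promoter motifs were set beside these values as a description. The median log2 fold change was 0.05 for the 7 members with the interferon core and -0.17 for the other members with a window. It was -0.07 with the antioxidant core and -0.18 without it, -0.18 with the ETS core and -0.13 without it, and -0.16 with the NF-Y box and -0.17 without it. PSMB8 and PSME1, which both hold the interferon core, moved in opposite directions.

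Genes that work with the proteasome were counted from lists chosen with earlier results of these data known. For comparison, 24.5% of all genes fell and 23.3% rose. Of 11 subunits and factors without a PSM symbol, 6 fell and 1 rose, with a median of -0.11. POMP, the maturation factor of the core, fell by 0.39 (adjusted p = 1.18e-08), and the deubiquitinase UCHL5 fell most, by 0.48 (2.15e-06). The ubiquitin receptor ADRM1 had 0.00 (adjusted p = 0.995), and PAAF1, a 19S chaperone, gave the 1 rise (0.19, adjusted p = 0.0442). Of 11 shuttles and adaptors, which carry substrates to the proteasome, 4 fell and none rose (median 0.03), with the largest fall in ZFAND5 (-0.25, adjusted p = 2.48e-06). Of 6 ubiquitin and ubiquitin-activating genes 2 rose and 2 fell, with UBA1 up by 0.19 (8.02e-05) and UBA6 down (-0.27, adjusted p = 5.88e-06).

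Of 12 transcription factors of proteasome genes and their partners, 6 fell and 3 rose, with a median of -0.15. Over all genes 24.5% fell and 23.3% rose. NFE2L1, the factor that raises constitutive subunit genes, fell from log2 CPM of 8.69, 8.70 and 8.65 with DMSO to 8.28, 8.28 and 8.34 with fostamatinib, without overlap, by 0.38 (SE 0.037, adjusted p = 8.92e-11). MAFF, a small partner protein of that family, fell most (by 1.35, adjusted p = 7.03e-12). FOXO4 rose most (0.82, adjusted p = 6.46e-04) on a mean of 33.3 reads with DMSO. These values are RNA and not protein, and the part of NFE2L1 in the changes of subunit genes was not tested.

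Of 17 inducers of the immunoproteasome and class I partners, 6 fell, 4 rose and 7 did not pass, with a median of -0.09. Over all genes 24.5% fell and 23.3% rose. Among the inducers, IRF1 fell by 0.32 (adjusted p = 1.98e-04), while NLRC5, on a mean of 25.7 reads with DMSO, did not pass (0.16, adjusted p = 0.639). IFNGR1, a chain of the interferon gamma receptor, fell most (by 1.24, adjusted p = 5.2e-23), and STAT2 rose most (0.63, 1.87e-12). Downstream of the immunoproteasome, the peptide transporter gene TAP1 fell by 0.37 (adjusted p = 0.00565), and B2M, the light chain of class I molecules, rose by 0.15 (2.37e-04). Like the 5 immunoproteasome genes, this list held both rises and falls.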

How the data were processed

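Total RNA of Huh7SR cells was sequenced from poly(A)-selected, directional libraries. For these files the authors aligned with HISAT on hg19 and took gene counts from featureCounts with the GENCODE v.22 annotation. Genes under 5 reads in 2 or more of the 3 samples within each group had been dropped, and libraries were scaled by TMM. What the authors deposited is log2 CPM, 1 file for each of 6 samples, computed after adding 0.5 to each count. Groups and replicate numbers came from the sample labels.

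The values of 16305 genes (repeated rows of 1 gene were used once) entered a linear model in R 4.3.3 with limma 3.58.1 (lmFit, eBayes with a mean-variance trend, treatment as the only term, two-sided, Benjamini-Hochberg over all genes). Every value gave a whole read count within 0.05, and the recovered reads served for depth and alternatives. Low counts widen the intervals, and 0.5 added to the count understates changes of genes with few reads. Tables used Python 3.11.15 with scipy 1.17.1, pandas 2.3.3 and numpy 2.4.6. Ratios within a sample were compared with an exact permutation test. Positions and canonical transcript lengths are from GRCh37, the same build as hg19, with GENCODE version 44, where 98.7% of the gene identifiers were found. The scripts were tested on simulated data.

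Members and gene lists were chosen with earlier results of these data known. Values in every sample are given for the immunoproteasome and constitutive catalytic genes and for the largest rise and fall among the called genes of each role group; members that did not pass are named. Genes of the lists are named where they are 1 of 8 chosen genes or the largest rise or fall of their list. One gene that meets this rule is not reported here. Alternatives were limma-voom, no trend, median-ratio factors, library size alone, other filters, a pseudocount of 2 reads, a replicate block, stricter thresholds and leaving out each sample.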

Additional observations from a re-analysis of the deposited data

How the results depend on the processing

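The count of 28 called members was the same with limma-voom, median-ratio size factors, library size alone, both other filters and a pseudocount of 2 reads. Without the variance trend 19 were called, 18 of the 28 and PSMA6, with 3 of the core genes and 2 higher. At an adjusted p under 0.01 there were 24, with 2 higher. With a change of at least 1.5-fold required, 2562 of all genes and 1 member remained, PSMG1, which left 0 core, 0 regulatory and 0 immunoproteasome genes, 1 assembly factor, 0 higher and 1 lower. Leaving out each sample gave 24 to 27 called members, of which 2 to 4 were higher. The call was the same for 22 of the 28 whichever sample was left out, and for 17 in every refit, PSMB8 and PSME1 among them. Class medians kept their sign in every refit.

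The sign turned for members that were not called. PSMD10 was 0.001 with median-ratio factors. Leaving out 1 sample gave ranges of -0.061 to 0.053 for PSMD10, -0.002 to 0.070 for PSMB6, -0.066 to 0.007 for PSMB3, -0.376 to 0.068 for PSMB9, -0.040 to 0.006 for PSMC5 and -0.435 to 0.001 for the ratio of PSMB9 to PSMB6, and the cause was not tested.

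The groups share replicate numbers, but deviations of same-numbered samples correlated at only 0.036, -0.021 and 0.037, so the numbers were not taken as pairs. With a replicate block 28 members and 7977 of all genes were called, and no member changed its call. Without a pseudocount, an alternative chosen after seeing the data, the ratios to PSMB5, PSMB6 and PSMB7 differed by -0.399, -0.219 and 0.368. Depth limits PSMB9 most (12 to 23 reads).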

Other observations

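Antisense genes that carry the names of members were left out by the symbol rule. PSMD5-AS1 rose by 0.45 (SE 0.124, adjusted p = 0.0027), from 84, 104 and 106 reads with DMSO to 120, 129 and 128 with fostamatinib. PSMD5 rose too, by 0.14. PSMG3-AS1 rose by 0.58 (SE 0.101, adjusted p = 9e-06), from 131, 169 and 150 reads to 216, 223 and 193, while PSMG3 fell. PSMA3-AS1 rose by 0.23 (adjusted p = 0.00934), while PSMA3 fell. PSMB8-AS1 (2 to 12 reads per sample) and PSMD6-AS2 (6 to 10) did not pass the test (limma). Whether the counting used strand is not stated in the sources used here, so reads of a gene and of its antisense partner may not be told apart.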
